A study of Homo sapiens with 12 samples.

Results

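The insulin-like growth factor (IGF) axis of BT474 cells was followed through lapatinib treatment by the mRNA of 10 genes, out of 26485 genes in the table. They were chosen by name and by role in the axis, with earlier results of these data known. The group holds the IGF-binding proteins IGFBP2, IGFBP3, IGFBP4, IGFBP5 and IGFBP6, the receptors IGF1R, IGF2R and INSR, and the adaptors IRS1 and IRS2. A filter on low values, a level of at least 1 in at least 3 libraries, was passed by 9 of the 10 and by 13794 of all genes. IGFBP6 did not pass it and was not tested.

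BT474 is an established human breast cancer cell line with amplified HER2, and lapatinib inhibits the HER2 and EGFR kinases. RNA came from unmodified (WT) cells in 4 groups of 3 libraries each. Control cells came from day 0, drug-tolerant persister (DTP) cells from day 9, drug-tolerant expanding persister (DTEP) cells from month 6 and long-term resistant (LR) cells, labelled Resistant, from month 9, all with 1 µM lapatinib on the label. That label is also on the Control libraries, which were taken as untreated because they are titled Control at day 0. The authors speak of technical replicates and also of parallel plates, so the p-values below measure the spread between these libraries, which may be technical, and not between independent derivations of resistant cells.

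In the IGF axis, the ligands IGF1 and IGF2 bind the receptor tyrosine kinase IGF1R, and insulin binds its close relative INSR. The activated receptors phosphorylate the docking proteins IRS1 and IRS2, which recruit PI3K and so lead to AKT. IGF-binding proteins are secreted, hold the ligands outside the cell and either keep them from the receptors or deliver them. IGF2R has no kinase and takes IGF2 up for degradation. In breast epithelium the axis is known as a growth and survival input that runs beside HER2 and is tied to estrogen receptor signalling, and genes of the axis such as IRS2 and INSR are textbook targets of the FOXO factors that AKT restrains.

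Levels are given below as normalised read counts, which are reads scaled to a common library size. A library had 16383363 to 25030482 assigned reads, 1 read was worth 0.0412 to 0.0576 normalised read counts, and 0 reads in a library allowed a level of up to 3 reads, or 0.124 to 0.173. Such limits cover counting error only, since there were no molecular identifiers. Across genes, Pearson's r of the libraries within a group was 0.997 to 0.998 for Control and 0.934 to 0.982 for DTEP. DTEP replicate 3 stood apart. Its r was 0.971 to 0.986 with the LR libraries and 0.934 to 0.962 with the other DTEP libraries. All 7 luminal breast epithelium markers examined reached a level of at least 1 in every library, while in each group 1 of 8 fibroblast markers, COL1A1, did so in all 3 libraries. The luminal markers summed to between 10520.3 and 11263 per Control library and between 12878 and 15300.0 per DTP library. The sum was only between 4240 and 6171 per DTEP library and between 3991 and 5450.4 per LR library. These markers include ERBB2, the larger part of the Control sum at 6356 to 6833 per library. Its mean was 8545 in DTP cells and 1627 at the DTEP stage. Most of the fall between these stages was therefore that of ERBB2. KRT8, KRT18 and KRT19 also had lower means in LR (351, 426 and 444) than in Control (987, 651 and 1122). EPCAM went the other way, with a mean of 246 in LR against 205 in Control. CDH1 went from a mean of 1125 in Control to 75.1 in LR, GATA3 from 190.3 to 1251 and COL1A1 from 55.3 to 111. Leukocyte markers summed to at most 0.0957, and the endothelial gene VWF went from a mean of 8.09 in Control to 0.118 in LR. The part of other cell types in the results was not tested. In bulk RNA, fewer cells expressing a gene and less of its RNA per cell cannot be told apart.

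The 10 genes lie on 8 chromosomes (GRCh38/hg38 coordinates). IGFBP2 (chr2:216632828-216664436, plus strand) and IGFBP5 (chr2:216672105-216695549, minus strand) end 7.67 kb from each other, and IRS1 (chr2:226731312-226799820, minus strand) is on the same chromosome. IGFBP4 (chr17:40443450-40457725, plus strand) lies 715 kb from ERBB2, the gene of HER2. IGFBP3 is at chr7:45912245-45921272 on the minus strand, IGFBP6 at chr12:53097667-53102340 on the plus strand and IRS2 at chr13:109752695-109786583 on the minus strand. The receptors are IGF1R at chr15:98648539-98964530, IGF2R at chr6:159969082-160111504 and INSR at chr19:7112265-7294414.

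Promoter sequence is shown for the members called in any comparison (IRS2, IGFBP3 and IGFBP4), for IGFBP5, the most abundant, and for INSR, which moved in the same direction as IRS2 in DTP. Each line gives the 250 bases before the annotated start of the gene, 5′ to 3′ on the gene's own strand, from RefSeq on GRCh38.p14. Capitals mark letters found on either strand. They are TGTTTTG, the core of an insulin response element, where FOXO factors can bind, and GTAAACA, the core that FOXO factors are best known for. An AP-2 site was searched for as GCCNNNGGC and a GC box as GGGCGG. The estrogen receptor core was searched for as AGGTCA, and the TATA box was spelled TATAAA. Neighbouring GC boxes can share bases, and an AP-2 site can share bases with another.
IRS2, chr13:109786584-109786833, minus strand: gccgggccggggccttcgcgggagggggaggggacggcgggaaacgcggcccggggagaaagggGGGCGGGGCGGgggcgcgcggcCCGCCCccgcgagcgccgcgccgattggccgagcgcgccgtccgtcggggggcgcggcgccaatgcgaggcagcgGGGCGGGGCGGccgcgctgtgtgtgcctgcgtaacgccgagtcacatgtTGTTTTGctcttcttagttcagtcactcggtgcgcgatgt
INSR, chr19:7294415-7294664, minus strand: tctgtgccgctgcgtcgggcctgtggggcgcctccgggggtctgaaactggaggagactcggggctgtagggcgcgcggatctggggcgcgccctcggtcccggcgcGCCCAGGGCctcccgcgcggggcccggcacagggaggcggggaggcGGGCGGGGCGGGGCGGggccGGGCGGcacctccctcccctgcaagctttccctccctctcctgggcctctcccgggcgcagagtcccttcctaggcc
IGFBP3, chr7:45921273-45921522, minus strand: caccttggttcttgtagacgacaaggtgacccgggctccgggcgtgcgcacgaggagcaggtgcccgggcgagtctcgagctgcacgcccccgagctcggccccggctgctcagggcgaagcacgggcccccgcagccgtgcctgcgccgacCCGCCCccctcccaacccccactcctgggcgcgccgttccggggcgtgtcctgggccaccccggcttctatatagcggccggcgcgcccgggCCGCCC
IGFBP4, chr17:40443200-40443449, plus strand: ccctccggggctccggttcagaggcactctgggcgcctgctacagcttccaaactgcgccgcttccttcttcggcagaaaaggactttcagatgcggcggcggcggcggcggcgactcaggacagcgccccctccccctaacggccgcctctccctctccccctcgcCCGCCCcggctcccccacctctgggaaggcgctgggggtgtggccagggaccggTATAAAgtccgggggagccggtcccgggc
IGFBP5, chr2:216695550-216695799, minus strand: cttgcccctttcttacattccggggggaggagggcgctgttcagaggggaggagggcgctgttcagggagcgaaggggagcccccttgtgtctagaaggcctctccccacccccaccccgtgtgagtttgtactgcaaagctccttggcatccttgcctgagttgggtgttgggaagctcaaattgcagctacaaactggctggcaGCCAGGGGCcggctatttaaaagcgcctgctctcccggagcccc

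The IRS2 window held TGTTTTG 40 bases before the start and 5 GC boxes. TGTTTTG was present in 4.34% of 27305 promoter windows, and among the 10 genes only IRS2 had it. GTAAACA, in 2.98% of all windows, was found in the IGFBP6 window only. The INSR window had 4 GC boxes and an AP-2 site, and that of IGFBP3 had 2 GC boxes. GC boxes were in 42.3% of all windows and in those of every member but IGFBP5. AP-2 sites were in 19.7% of all windows, and among the members in those of IGFBP5, IGFBP6, IGF1R, INSR and IRS1. IGFBP4 had a TATA box 29 bases before its start, which 11.1% of windows had. IGFBP5 had an AP-2 site 44 bases before its start and no GC box. AGGTCA, in 12.1% of all windows, was found on the minus strand of the IGFBP2 window and in no other window of the 10. These are matches of letters in a short window, and no binding was measured in these cells.

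**Figure D1:**
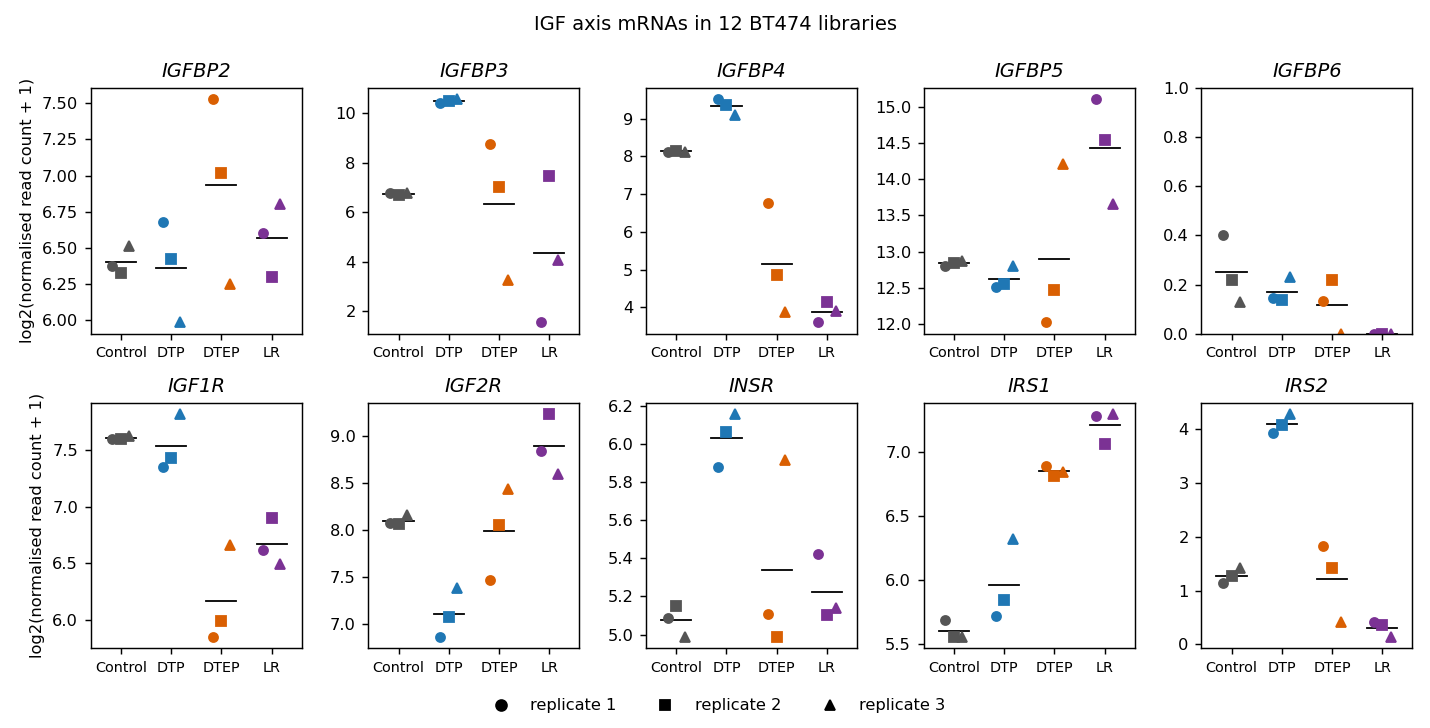
Level of each of the 10 genes in the 12 libraries, as log2(normalised read count + 1) on the vertical axis, by group on the horizontal axis. Symbols mark the replicate number and the bar is the group mean. IGFBP3 and IRS2 peaked in DTP, IGFBP4 was at 11.1 to 16.5 normalised read counts in LR against 277 to 281 in Control, and IGFBP5 was highest in LR, with DTEP replicate 3 among the LR values.

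Ligand mRNA was barely present. INS had no read in any library and IGF2 had 1 read, in Control replicate 3. IGF1 had 6 reads in each Control library, 1, 2 and 5 reads in DTP, 1 read over the DTEP libraries and none in LR, so its level never exceeded 0.326. IGFALS, the carrier subunit that joins IGF and IGFBP3 in serum, reached 1.10 in DTP replicate 1 and was lower in every other library. These 4 genes did not pass the filter. The binding proteins IGFBP1 and IGFBP7 stayed at or below 0.288 in all libraries. IGFBP6, which prefers IGF2, had 2 to 7 reads in the Control libraries, 2 to 3 in DTP, 0 to 4 in DTEP and 0 in each LR library, where the limit of 3 reads applies. With no filter on low values, IGFBP6 passed as lower in LR than in Control (log2 change -0.25, SE 0.0686, adjusted p = 0.0105, limma) and in no other comparison. Control replicates 2 and 3 were at 0.163 and 0.0932, while 0 reads allowed up to 0.127 to 0.166 in the LR libraries. At this depth the difference therefore rests on few reads and is not resolved.

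IGFBP3, the main carrier of IGFs in serum, rose in DTP and fell again in DTEP. It was at 108, 102 and 108 in the Control libraries and at 1373, 1465 and 1514 in DTP. The DTP libraries were all above every other library and differed little among themselves. DTEP libraries 1, 2 and 3 had 429, 127 and 8.64, and LR libraries 1, 2 and 3 had 1.90, 174 and 15.8. The later libraries thus spread over a range that took in the Control level, and replicate 2 of LR stood far above the other LR libraries. DTP was 13.7-fold above Control (log2 change 3.76, SE 1.36, adjusted p = 0.0348, limma), and DTEP was 7.71-fold below DTP (log2 change -4.16, SE 1.36, adjusted p = 0.0168). Neither LR against DTEP (log2 change -1.99, adjusted p = 0.304) nor LR against Control (-2.39, adjusted p = 0.146) passed the test. The SE is shared by all groups and holds the spread of the DTEP and LR libraries, where the SD of IGFBP3 on the log2 scale was 2.80 and 2.97, above that of 99.97% and 99.98% of tested genes. With only the Control and DTP libraries in the fit, the rise had an adjusted p of 4.30e-07. Leaving out any of those 6 libraries, with the other groups kept, gave 0.0737 to 0.0799 with a log2 change of 3.729 to 3.799. Without DTEP replicate 3 the fall from DTP to DTEP was -2.63 (adjusted p = 0.0677), and LR was below DTEP by a log2 change of -3.52 (adjusted p = 0.0309). Without LR replicate 2, LR was below Control by -3.94 (adjusted p = 0.0165).

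IGFBP4, an inhibitory binding protein, was higher in each DTP library than in Control and then fell to a small part of its Control level. It was at 277, 281 and 278 in Control, 725, 655 and 547 in DTP, 107, 28.0 and 13.6 in DTEP, and 11.1, 16.5 and 13.9 in LR. All DTEP and LR libraries were below all Control libraries, and DTEP replicate 3 lay within the LR range. The fall from DTP to DTEP was 13.0-fold (log2 change -4.16, SE 0.512, adjusted p = 1.72e-05, limma), and LR was 20.1-fold below Control (log2 change -4.25, SE 0.512, adjusted p = 1.67e-05). DTEP was also below Control (log2 change -2.97, adjusted p = 0.000343). The 2.31-fold difference between DTP and Control did not pass (log2 change 1.19, adjusted p = 0.0669), although these groups did not overlap. It passed with only the 6 libraries compared (adjusted p = 7.21e-05), with DESeq2 (0.0279), and without DTEP replicate 1 (0.000976) or 3 (0.0121). LR against DTEP was -1.28 (adjusted p = 0.104), and it passed without DTEP replicate 3 (-1.93, adjusted p = 0.00249) and with DESeq2 (-1.79, adjusted p = 0.00675).

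IGFBP5, which also binds extracellular matrix, was the most abundant member. It was at 7141, 7329 and 7489 in Control and at 5843, 6007 and 7146 in DTP. It was at 4160.2 and 5673 in DTEP replicates 1 and 2 and at 18971 in replicate 3, which fell within the LR values of 35111, 23822 and 12939.7. Every LR library was above every Control library, while DTEP held both the lowest libraries of all and a high library. IGFBP5 took 0.705% to 0.743% of all assigned reads in Control and 3.39%, 2.28% and 1.32% in LR, and it had the most reads of any gene in 8 of the 12 libraries. In DTP the top gene was RPL19, a ribosomal protein gene, and in DTEP replicate 1 it was GAPDH. LR was 3.27-fold above Control (log2 change 1.60, SE 0.521, adjusted p = 0.0181, limma). It no longer passed with no filter (adjusted p = 0.0745), nor without Control replicate 1 (adjusted p = 0.0531), Control replicate 2 (0.0516) or LR replicate 1 (log2 change 1.26, adjusted p = 0.0731). LR against DTEP did not pass (log2 change 1.53, adjusted p = 0.0757), but did without DTEP replicate 3 (2.19, adjusted p = 0.000551) or LR replicate 3 (1.92, adjusted p = 0.0488) and with DESeq2 (1.35, adjusted p = 0.0298).

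IGFBP2, another high-affinity binding protein, passed the test in no comparison. It was at 81.9, 79.4 and 90.2 in Control, 101, 84.9 and 62.4 in DTP, 183, 129 and 75.1 in DTEP and 96.1, 77.8 and 111 in LR. DTEP replicates 1 and 2 were the highest libraries and replicate 3 was below the Control libraries. The log2 changes were between -0.36 (LR against DTEP) and 0.57 (DTEP against DTP), with adjusted p of 0.0865 or more. Without DTEP replicate 3, IGFBP2 passed as higher in DTEP than in DTP (0.91, adjusted p = 0.00266) and in Control (0.87, adjusted p = 0.00419), and as lower in LR than in DTEP (-0.70, adjusted p = 0.0198). In the libraries where IGFBP2 was highest, its neighbour IGFBP5 was at its lowest.

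To compare levels between genes, each level was divided by the length of the gene's MANE Select transcript, in kb. On this scale IGFBP5 made up 83.6% to 84.1% of the summed level of the 5 binding proteins in Control, 50.3% to 56.8% in DTP and 95.8% to 98.7% in LR. IGFBP3 went from 2.80% to 3.03% in Control to 28.2% to 29.8% in DTP, and was at 16.3%, 4.59% and 0.107% in the DTEP libraries and at most 1.68% in LR. IGFBP4 went from 8.81% to 9.17% in Control to 12.3% to 17.7% in DTP and at most 0.291% in LR. DTP cells therefore had a mixed binding protein mRNA pool, and LR cells a pool of almost only IGFBP5. The summed level per kb was 1370 to 1432 in Control, 1863 to 2017 in DTP, 1009, 1062 and 3103 in the DTEP libraries, and 5701, 3947 and 2165 in the LR libraries. The level of IGFBP5 per kb was 27.6 to 30.02 times that of IGFBP3 in Control and 1.72 to 1.98 times in DTP. These ratios are within a library and do not depend on the scaling between libraries.

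**Figure D2:**
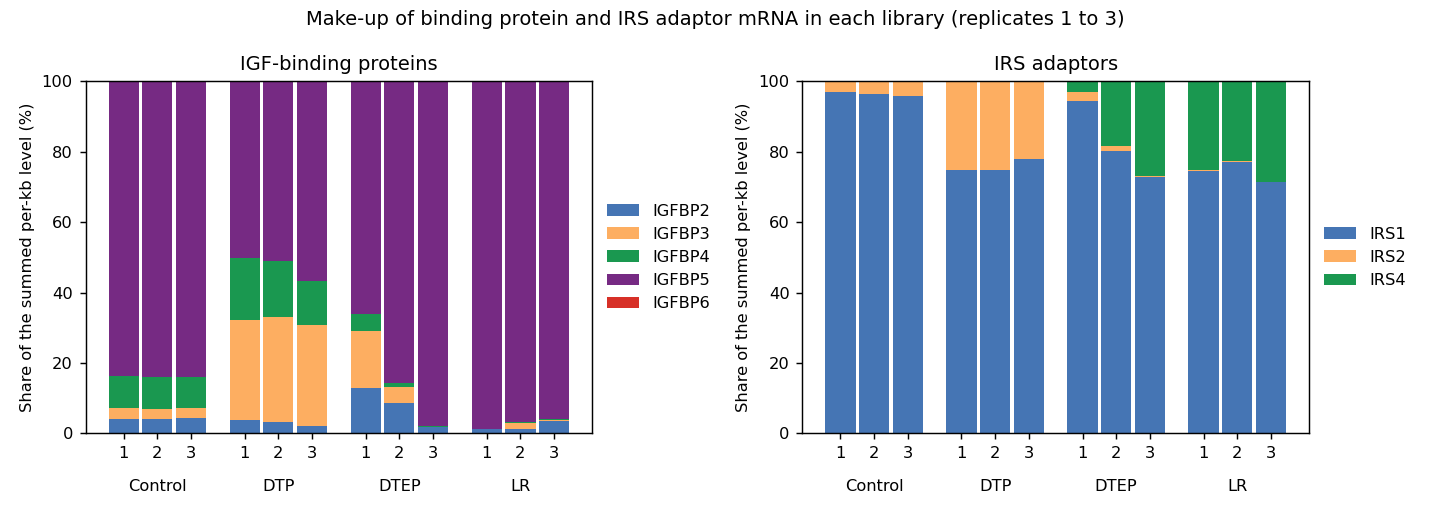
Share (%) of each gene in the summed level per kb of transcript, for the binding proteins (left) and the IRS adaptors (right), with a stacked bar for each library from 0 to 100%. IGFBP3 and IRS2 take their largest shares in DTP, at 28.2% to 29.8% and 21.8% to 25.1%, and in LR the rest is left to IGFBP5 and to IRS1 with IRS4.

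IGF1R, the receptor for IGF1 and IGF2, was lower in DTEP and LR than in Control and DTP. It was at 193, 193 and 196 in Control and at 162, 172 and 225 in DTP. The later libraries had 56.6, 62.7 and 100.1 in DTEP and 97.4, 119 and 89.3 in LR. All 6 later libraries were below all Control and DTP libraries. The log2 change between DTP and Control was -0.07 (adjusted p = 0.790), with a sign that turned under other settings. DTEP was 2.55-fold below DTP (log2 change -1.37, SE 0.204, adjusted p = 8.01e-05, limma), and LR was 1.90-fold below Control (-0.93, SE 0.204, adjusted p = 0.00167). LR was higher than DTEP by 0.51 (adjusted p = 0.106), and by 0.75 (adjusted p = 0.00249) without DTEP replicate 3. IRAIN, an antisense gene within IGF1R, had a level of at most 0.512.

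INSR, the insulin receptor, rose in DTP. Its levels were 33.0, 34.5 and 30.7 in Control and 57.8, 65.8 and 70.2 in DTP. They were 33.4, 30.8 and 59.3 in DTEP and 42.0, 33.4 and 34.2 in LR. DTP libraries 2 and 3 were the highest of the 12, and DTEP replicate 3 lay within the DTP range while the other DTEP libraries were at the Control level. DTP was 1.97-fold above Control (log2 change 0.96, SE 0.214, adjusted p = 0.00273, limma), and DTEP was below DTP by a log2 change of -0.70 (adjusted p = 0.0122), which became -0.52 (adjusted p = 0.0589) without DTEP replicate 2. LR differed from Control by 0.15 (adjusted p = 0.566).

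The balance of the receptor mRNAs differed between groups. Per kb of transcript, the IGF1R level was 4.33 to 4.95 times that of INSR in Control and 2.02 to 2.47 times in DTP. In DTEP it was 1.31 to 1.58 times and in LR 1.80 to 2.75 times. No library of DTEP or LR reached the Control ratio. IGF1R was still the more abundant of both mRNAs in all 12 libraries.

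IGF2R, the receptor that clears IGF2 and sorts lysosomal enzymes, moved the other way to INSR in DTP. It was at 269, 266 and 285 in Control and at 115, 133 and 166 in DTP. DTEP libraries had 176, 264 and 345, and LR libraries had 458, 599 and 384. DTP libraries were the lowest of all and LR libraries the highest, while DTEP spread from just above DTP to above Control. DTP was 1.98-fold below Control (log2 change -0.996, SE 0.234, adjusted p = 0.00366, limma). DTEP was above DTP by 0.88 (adjusted p = 0.00517) and LR above Control by 0.79 (adjusted p = 0.0111, and 0.62 with adjusted p = 0.0512 without LR replicate 2). LR was above DTEP by 0.90 (adjusted p = 0.0422). It no longer passed in 10 of the 12 fits that left out a library (adjusted p of 0.0507 to 0.132 there), in all but those without DTEP replicate 3 or LR replicate 3, nor with only the 6 libraries compared (0.301) or with no filter (0.0684). Of the genes that overlap IGF2R, AIRN had no read and LOC729603 at most 4.43.

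IRS1, whose mRNA was the most abundant per kb among IRS1, IRS2 and IRS4, was higher at each later time. It was at 50.6, 46.0 and 45.9 in Control, 51.8, 56.6 and 79.0 in DTP, 118, 112 and 114 in DTEP and 155, 133 and 156 in LR. No pair of groups overlapped. In DTEP its libraries agreed closely, with an SD on the log2 scale of 0.0395, where 1.62% of tested genes had a smaller SD. DTEP was 1.84-fold above DTP (log2 change 0.89, SE 0.152, adjusted p = 0.000233, limma) and LR was 3.12-fold above Control (1.62, SE 0.152, adjusted p = 1.97e-06). The step from Control to DTP was 0.37 (adjusted p = 0.0592) and that from DTEP to LR 0.36 (adjusted p = 0.115), neither of which passed. The step to DTP did pass with median-of-ratios scaling (0.41, adjusted p = 0.0328), with edgeR (0.45, adjusted p = 0.0220), with DESeq2 (0.45, adjusted p = 0.0145), and without DTP replicate 1 (0.49, adjusted p = 0.0271) or DTEP replicate 3 (0.37, adjusted p = 0.0459).

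IRS2, the other widely expressed docking protein, rose in DTP and fell again in DTEP. It had 26, 26 and 36 reads in Control, at levels of 1.20, 1.41 and 1.68. DTP libraries had 275, 321 and 320 reads, at levels of 14.4, 15.8 and 18.4. DTEP libraries were at 2.54, 1.69 and 0.337, and LR libraries at 0.338, 0.277 and 0.0969, with 8, 5 and 2 reads. DTP stood far above all other libraries, and LR was below Control in every library. DTP was 11.3-fold above Control (log2 change 2.82, SE 0.283, adjusted p = 1.25e-05, limma) and DTEP was 10.7-fold below DTP (log2 change -2.88, SE 0.283, adjusted p = 2.82e-06). LR was 6.02-fold below Control (-0.97, adjusted p = 0.00993), where the log2 change understates the fold because 1 is added to low levels. LR against DTEP did not pass (-0.92, adjusted p = 0.0605). It passed with a pseudocount of 0.1 (-1.995, adjusted p = 0.0455), with edgeR (-2.58, adjusted p = 0.0243), with DESeq2 (-2.63, adjusted p = 0.000599) and without DTEP replicate 3 (-1.32, adjusted p = 0.000220).

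A further docking protein, IRS4, which is not a member and is normally restricted to a few tissues, appeared in DTEP. It had 3, 0 and 1 reads in Control and 2, 1 and 4 in DTP, then levels of 2.68, 17.3 and 28.5 in DTEP and 35.3, 26.5 and 42.2 in LR. All DTEP and LR libraries were above all earlier libraries. The log2 change from DTP to DTEP was 3.48 (adjusted p = 0.000137, limma) and LR against DTEP was 1.48 (adjusted p = 0.0915). Per kb, IRS2 took 21.8% to 25.1% of the summed IRS1, IRS2 and IRS4 level in DTP, against 2.75% to 4.18% in Control and at most 0.195% in LR. IRS4 took 3.19%, 18.5% and 27.0% in the DTEP libraries and 22.8% to 28.7% in LR. IRS1 had the largest share in every library, from 71.3% to 96.9%. Per kb its level was 22.9 to 35.3 times that of IRS2 in Control, 2.98 to 3.58 times in DTP and 383 to 1346 times in LR, the last resting on 2 to 8 IRS2 reads.

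Counts over the 9 tested members were set beside those over all tested genes. A gene passed at an adjusted p below 0.05 and was called when its absolute log2 change was also above 2. Between Control and DTP 4 members passed, against 54.0% of all tested genes. INSR, IGFBP3 and IRS2 were higher (25.2% of all) and IGF2R was lower (28.8%). IGFBP3 and IRS2 were called, both as higher, against 4.92% of all tested genes called and 1.01% called as higher. Between DTP and DTEP 7 members passed, against 68.2%. IRS1 and IGF2R were higher (35.7% of all) and IGFBP3, IGFBP4, IGF1R, INSR and IRS2 were lower (32.6%). IGFBP3, IGFBP4 and IRS2 were called, all as lower, against 15.2% called and 7.02% called as lower. The share of members that passed was thus near that of all genes in both steps. From DTEP to LR IGF2R alone passed, as higher, against 7.35% (3.04% higher and 4.31% lower). No member was called by limma there, against 0.681%, while 6 of the 9 had an unadjusted p below 0.05, against 34.9% of all tested genes. edgeR and DESeq2 each called 1 of the 9, IRS2, against 4.21% and 5.08% of the genes that they tested. In DTEP against Control 3 members passed, against 58.2%, with IRS1 higher (29.5% of all) and IGFBP4 and IGF1R lower (28.7%). IGFBP4 was called, against 10.6% called and 6.2% called as lower. In LR against Control 6 members passed, against 62.8%, with IGFBP5, IGF2R and IRS1 higher (30.2% of all) and IGFBP4, IGF1R and IRS2 lower (32.6%). IGFBP4 was again the member called, against 12.8% called and 7.8% called as lower. These comparisons share groups, so their counts are not independent. In the step from DTEP to LR, 7 of 9 members passed without DTEP replicate 3, where 47.5% of all tested genes did, and IGFBP3 and IGFBP5 were called, where 2.22% were.

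**Figure D3:**
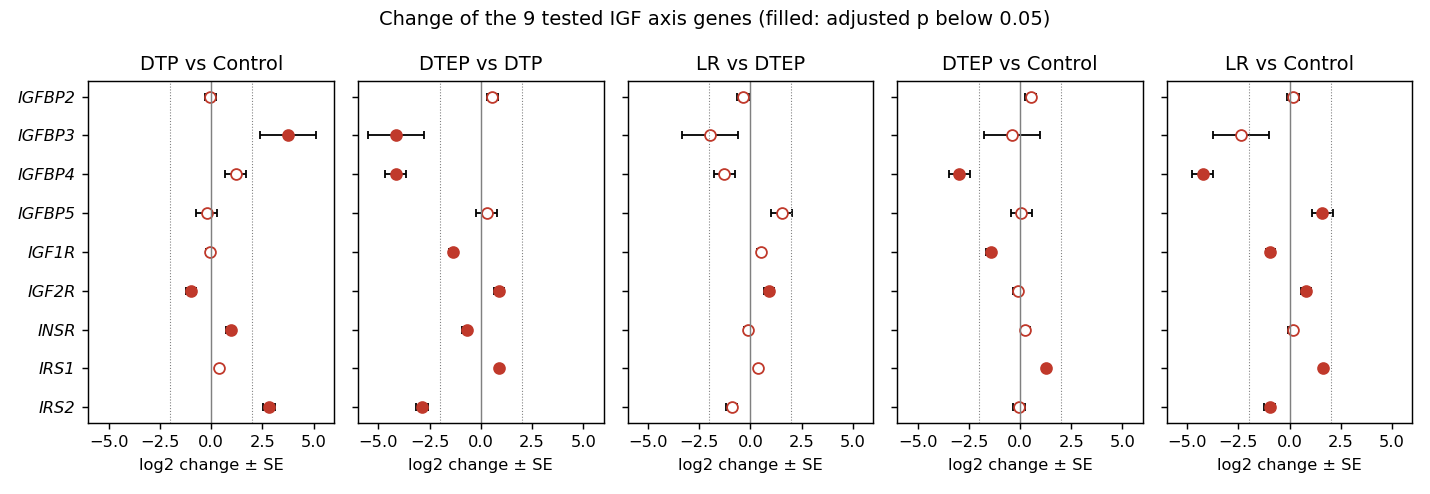
Log2 change of the 9 tested genes in 5 comparisons (horizontal axis, first group minus second), with bars of 1 SE. Filled points have an adjusted p below 0.05 and dotted lines mark an absolute change of 2. The bars of IGFBP3 (SE 1.36) are the widest, and IGFBP4 lies beyond the left line in 3 of the 5 panels.

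Of the 9 tested members, 4 had a DTEP replicate 3 value outside the LR range (IGFBP2, IGF2R, INSR and IRS1), and the other 5 had it within. That is 55.6% within, against 50.7% of all tested genes. The value lay between those of the other DTEP libraries for IRS1 only, which is 11.1% against 16.7% of all tested genes. The members were therefore close to the whole table in this respect.

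The genes around the axis were read from lists of 70 further pathway genes, of which 55 were tested. The first list, of proteases that cut binding proteins and their inhibitors, had 3 tested genes. STC2, an inhibitor of the protease PAPPA, had a mean of 192 in Control, 723 in DTP (log2 change 1.91, adjusted p = 0.00862), 62.6 in DTEP (-3.88 against DTP, adjusted p = 3.53e-05) and 35.2 in LR (-2.58 against Control, adjusted p = 0.000979). STC1, its close relative, was at or below 0.592 in every Control and DTP library and at 126, 67.3 and 32.1 in DTEP (log2 change 5.59 against DTP, adjusted p = 8.60e-07) and at 29.1, 12.5 and 47.7 in LR. PAPPA itself, which cuts IGFBP4, had at most 2 reads in a library. HTRA1, a protease of IGFBP5, was the third tested gene and fell from DTP to DTEP (-1.18, adjusted p = 0.000876).

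Among 5 tested genes for receptor processing and ligand clearance, 3 rose and 2 fell in DTP (25.2% and 28.8% of all tested genes). FURIN, which cuts the precursors of INSR and IGF1R, had a mean of 12.04 in Control and 44.2 in DTP (log2 change 1.79, adjusted p = 1.69e-05), and 24.7 in DTEP and 50.4 in LR. IDE, which degrades insulin, had a mean of 134 in Control and 50.7 in DTP (-1.40, adjusted p = 5.85e-05). FURIN and IDE were named after their values were seen. PCSK6, another proprotein convertase, was called as higher in DTEP than in Control (2.05, adjusted p = 1.39e-06), at a mean of 4.60 in Control and 22.5 in DTEP.

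Of 21 tested adaptors other than IRS1 and IRS2, 5 rose and 5 fell in DTP, and 6 rose and 9 fell from DTP to DTEP. Of all tested genes, 25.2% rose and 28.8% fell in DTP, and 35.7% rose and 32.6% fell from DTP to DTEP. The called extremes of the latter step were IRS4, above, and GRB10, an adaptor that restrains INSR and IGF1R. GRB10 was at 183, 194 and 212 in DTP, 28.3, 9.60 and 9.26 in DTEP and 18.6, 5.76 and 43.7 in LR (DTEP against DTP -3.75, adjusted p = 7.16e-05). GRB2, the adaptor that leads to RAS, was called as higher in DTEP, at means of 175 and 166 in Control and DTP and of 1069 and 1067 in DTEP and LR. GRB7, beside ERBB2 on chromosome 17, was called as lower, at means of 547, 1300, 149 and 121. GRB2 and GRB7 were named after their values were seen. No adaptor passed from DTEP to LR, against 7.35% of all tested genes. Without DTEP replicate 3, 1 adaptor rose and 4 fell, where 47.5% of all tested genes passed in either direction.

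All 13 PI3K and AKT genes were tested. In DTP 9 fell and none rose (median log2 change -0.68 against -0.01 over all tested genes, of which 28.8% fell), while 9 rose and none fell from DTP to DTEP (median 0.81 against 0.08, with 35.7% of all tested genes higher). AKT1 was at a mean of 507 in Control, 269 in DTP and 646 in DTEP. PIK3R2, a regulatory subunit of PI3K, was at means of 105, 71.6 and 273 in these groups and 369 in LR. AKT1 and PIK3R2 were named after their values were seen. From DTEP to LR none rose and 1 fell (3.04% and 4.31% of all tested genes), and 1 rose with median-of-ratios scaling. Without DTEP replicate 3, 7 rose, where 47.5% of all tested genes passed in either direction. In LR against Control 6 rose and 1 fell (30.2% and 32.6% of all tested genes).

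Of 13 tested brakes on receptor and PI3K signalling, 4 rose and 5 fell in DTP (25.2% and 28.8% of all tested genes), and 2 rose and 7 fell from DTP to DTEP (35.7% and 32.6%). SOCS3, which acts on INSR and IRS proteins, was called as higher in DTP, at 2.81, 2.72 and 1.96 in Control and 12.9, 15.4 and 13.9 in DTP (2.11, adjusted p = 1.93e-05). INPP4B, a lipid phosphatase that opposes PI3K, was at means of 118 and 59.8 in Control and DTP and of 6.02 and 4.66 in DTEP and LR (DTEP against DTP -3.22, adjusted p = 2.34e-06). SOCS7 was called as lower in DTEP than in Control (-2.42, adjusted p = 6.60e-08), at means of 99.2 and 534. SOCS2, a feedback inhibitor of cytokine and growth hormone receptors, was called as higher in LR than in DTEP (2.02, adjusted p = 0.0188), with 134, 259 and 64.3 in LR against 27.2, 22.7 and 50.2 in DTEP. Over all 55 genes, 13 rose and 21 fell in DTP, 20 rose and 20 fell from DTP to DTEP, and 2 rose from DTEP to LR, where 12 rose and 10 fell without DTEP replicate 3. Of all tested genes 25.2% rose and 28.8% fell in DTP, 35.7% rose and 32.6% fell from DTP to DTEP, and 3.04% rose from DTEP to LR (47.5% passed in either direction without DTEP replicate 3).

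**Figure D4:**
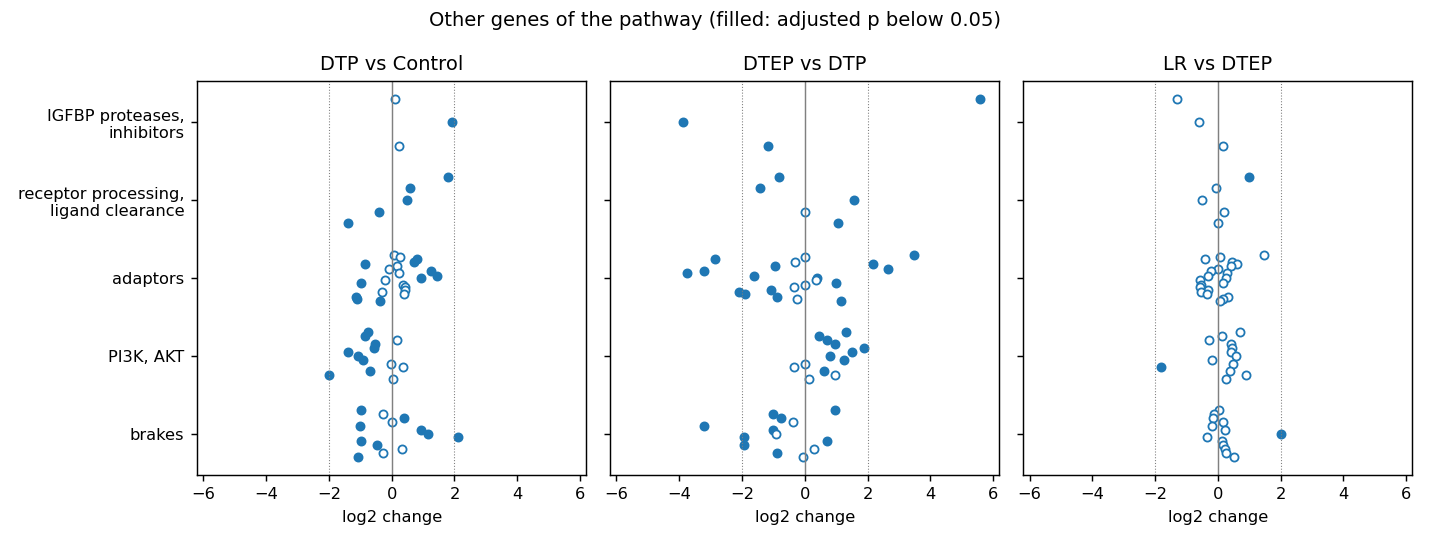
Log2 change (horizontal axis) of the 55 tested pathway genes other than the members, by list (vertical axis), in the 3 successive steps. Filled points have an adjusted p below 0.05 and dotted lines mark an absolute change of 2. The filled PI3K and AKT points are all left of 0 in DTP against Control (9 genes) and all right of 0 in DTEP against DTP (9 genes).

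Genes with a pattern most like the called members over the 12 libraries, among 10996 genes with a mean level of at least 5, were found by Pearson's r of the log2 values. The libraries fall into 4 groups, so these values describe the group pattern more than the spread within groups. For IGFBP3 they were PFDN6, a prefoldin subunit (r = 0.950), and DHX16, an RNA helicase (r = 0.947). For IGFBP4 they were URM1 and ACAA2 (both r = 0.997). ACAA2, an enzyme of fatty acid oxidation, was at means of 26.2, 45.8, 4.83 and 1.19 in Control, DTP, DTEP and LR. For IRS2 they were the transcription factor NRF1 (r = 0.996) and CAV1 (r = 0.993). CAV1, the coat protein of caveolae, was at means of 2.31, 51.6, 3.38 and 0.0141, so that DTP stood out as it did for IRS2.

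The nearest tested genes on each side of the members, 18 genes that are not members themselves, lay 0.339 to 1689 kb away, and 12 of them passed in DTP against Control, where 54.0% of all tested genes did. In DTEP against DTP 9 passed (68.2% of all), in LR against DTEP 0 (7.35%), in DTEP against Control 8 (58.2%) and in LR against Control 9 (62.8%). TOP2A, a replication gene 25.6 kb from IGFBP4, had a log2 change of -5.14 in DTP and 4.52 from DTP to DTEP, opposite in sign to IGFBP4 in both steps. TNS4, 18.1 kb to the other side, was at most 1.32 in all but 1 library. Beside IGFBP3, the log2 change in DTP was 1.28 for TNS3 and 0.51 for SEPT7P2. Beside IRS2 it was -1.70 for the collagen gene COL4A2 and 0.11 for TNFSF13B. These changes were smaller than those of IGFBP3 and IRS2 in DTP. RHBDD1, whose annotation starts 0.339 kb from IRS1, was at means of 27.8, 31.7, 27.4 and 35.9 in Control, DTP, DTEP and LR and passed in no comparison, and DOCK10 on the other side had a change of -1.48 in DTP. Around INSR, ZNF557 and ARHGEF18 had log2 changes of 0.41 and 0.37 in DTP. Around IGF1R those of ARRDC4 and SYNM were -0.997 and -0.88, and around IGF2R those of MRPL18 and MAP3K4 were -0.61 and -0.42. RPL37A beside IGFBP2 rose in DTP (1.10, adjusted p = 0.00183), and DIRC3 beside IGFBP5 had a change of -0.03. SPRYD3 and CSAD beside IGFBP6 had changes of 0.66 and 0.76.

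Levels of regulators known to bear on the axis are given as context, and their part in the results was not tested. ESR1, the estrogen receptor, was at means of 151 and 105 in Control and DTP and of 8.14 and 0.154 in DTEP and LR. PGR, a textbook target of it, was at 1179, 909, 73.0 and 2.45. Both were lowest in LR, where IGFBP4, IGF1R and IRS2 passed as lower than in Control and IGFBP5, IGF2R and IRS1 as higher. FOXO1 was at means of 4.39, 12.7, 17.4 and 41.5, and FOXO4 at 6.82, 37.2, 43.1 and 38.4. Both were higher in DTP than in Control (log2 changes of 1.33, adjusted p = 0.000591, and 2.29, adjusted p = 1.34e-07, limma). By mean, FOXO1 was highest in LR and FOXO4 in DTEP. The activity of FOXO proteins was not measured. FOXO3 was at 114, 100.4, 68.5 and 108. TFAP2B, an AP-2 factor, had 0 reads in DTP and was at means of 719 in DTEP and 1162 in LR. ERBB2 was at means of 6526, 8545, 1627 and 1774. MKI67, a proliferation marker, was at 224, 2.71, 563 and 292. IGFBP3, IGFBP4, IRS2 and INSR had their highest means in DTP, where MKI67 was lowest.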

How the data were processed

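The authors used Rsubread to align reads from stranded mRNA libraries to hg38 and to count them over RefSeq genes at its default settings, which do not use strand. The deposited table holds a normalised signal per gene and library, here called normalised read counts. All 199680 values above 0 (100%) were whole multiples, within 0.001, of the value of 1 read in their library, so reads could be recovered. The authors' scaling equalled edgeR's TMM-scaled CPM of those reads.

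limma 3.58.1 (R 4.3.3, trend) was run on log2(value + 1) of all 12 libraries, for genes that reached 1 in 3 or more libraries. Tests were two-sided, with Benjamini-Hochberg adjustment over all 13794 genes in each of 5 comparisons. A log2 change understates the change of low genes. The planned design assumed normalised values, and edgeR 4.0.16 (quasi-likelihood) and DESeq2 1.42.0 on recovered reads were alternatives, beside other pseudocounts, filters and scalings, a replicate block and leaving out each library. Steps were tested on simulated data.

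Members and lists were chosen with earlier results of these data known. Named were all members, the ligands, IGFBP1, IGFBP7, IRS4, the called genes with the largest and smallest change in each list, the 2 genes most like each called member, neighbours, and 8 context genes. The result of 1 pathway gene is not reported here.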

Additional observations from a re-analysis of the deposited data

How the results depend on the processing

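The changes of the 9 tested members kept direction and side of the threshold in 959 values over the alternative settings, passed where they had not in 24, failed where they had passed in 27 and turned direction in 20. None of those that turned passed before or after. IGFBP2 in DTP against Control turned to 0.00528 (median-of-ratios scaling), 0.0551 (edgeR), 0.0467 (DESeq2), 0.0116 (without Control replicate 3) and 0.147 (without DTP replicate 3), and IGF1R to 0.00127 (edgeR), 0.00154 (DESeq2) and 0.0193 (without DTP replicate 1). In DTEP against Control, IGFBP3 turned to 0.822 (edgeR), 0.754 (DESeq2) and 1.13 (without DTEP replicate 3), IRS2 to 0.119 (edgeR), 0.0296 (DESeq2), 0.0197 (without Control replicate 3) and 0.349 (without DTEP replicate 3), and IGF2R to 0.143 (without DTEP replicate 1). Without DTEP replicate 3, IGFBP5 turned to -0.591 in DTEP against Control and -0.376 in DTEP against DTP, and INSR to -0.0265 in DTEP against Control and 0.175 in LR against DTEP. Over the fits that left out a library, these changes ranged for DTP against Control from -0.200 (IGFBP2) and -0.215 (IGF1R), for DTEP against DTP up to 0.718 (IGFBP5), for LR against DTEP from -0.287 (INSR), and for DTEP against Control from -1.60 (IGFBP3), -0.338 (IGF2R) and -0.353 (IRS2) and up to 0.503 (IGFBP5) and 0.435 (INSR).

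The count of members called in DTP against Control went from 2 to 1 with no filter (IRS2) and with a mean of at least 5 (IGFBP3, since IRS2 was not tested), and to 1 to 2 on leaving out a library. From DTEP to LR it went from 0 to 1 with edgeR and DESeq2 (IRS2), and to 0 to 2 on leaving out a library, with 2 without DTEP replicate 3. DTEP against DTP gave 2 to 4 calls in place of 3, with 2 without DTEP replicate 3 and with edgeR (IGFBP3 lost in both). At an absolute log2 change above 1, DTEP against Control and LR against Control gave 3 calls each in place of 1. LR against Control gave 2 with a pseudocount of 0.1, edgeR and DESeq2 (IRS2 added), and 1 to 2 on leaving out a library, with 2 without LR replicate 2 (IGFBP3 added). The causes were not tested.

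Deviations from the group mean correlated at -0.441 to 0.359 between same-numbered libraries of different groups. Between differently numbered libraries they correlated at -0.430 to 0.459. The ranges were alike, but with 3 libraries per group this does not exclude pairing. With the replicate number as a block the counts of calls were 2, 3, 0, 1 and 1 in the 5 comparisons, as without it, and no member's call changed. Depth limits IGFBP6, the ligands and IRS2 in LR, at 8 reads or fewer in a library.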
